A study of Mus musculus with 16 samples.

Results

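The mitochondrially encoded genes are the 37 entries of the gene table on the mitochondrial chromosome (MT), taken whole from 56941 gene entries by position alone. On the plus strand lie 2 rRNA genes, 12 mRNA genes and 14 tRNA genes, and on the minus strand lie the mRNA gene mt-Nd6 and 8 tRNA genes. RNA was isolated from the chromatin fraction of E14TG2a mouse embryonic stem cells, an established line, grown in serum with LIF and with CHIR99021 and PD0325901, which inhibit GSK3 and MEK. Each culture overexpressed a histone demethylase, either the full-length protein or one lacking its intrinsically disordered region (IDR, called del-cIDR in the titles and del-IDR in the genotypes). KDM4A and KDM4B remove methyl groups from H3K9 and H3K36, and KDM6A (UTX) and KDM6B from H3K27. These make 8 groups of 2 libraries: KDM4A full-length, KDM4A IDR-deleted, and the same pair for KDM4B, KDM6A and KDM6B. Every group carried a construct, and the reference for each IDR-deleted protein is its own full-length form. The vector, its promoter, the bounds of the deletion and the number of clones are not given in the sources used here, nor whether replicates were separate cultures, so p-values measure the spread between these libraries only.

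Mitochondrial DNA is a small circle that is transcribed inside mitochondria by its own polymerase, POLRMT, with the factors TFAM and TFB2M. Both strands are read as long precursors from promoters in the control region, and most tRNA genes sit between the longer genes and mark the points where the precursors are cut. The mRNAs encode subunits of respiratory complexes I, III, IV and V, and the rRNAs build the mitochondrial ribosome. Mitochondria are not part of chromatin, and chromatin preparations can carry some of their RNA along.

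How these genes sit in the genome shaped what could be counted. The next sequences show the layout at 3 places, 5′ to 3′, copied from GENCODE M21 transcripts. MT positions are those of the deposited GRCm39 table, and start, end and strand were the same in M21 for 37 of 37 genes. The first run covers MT:2656-2770 on the plus strand, where the 75 bases of mt-Tl1 (a leucine tRNA, in capitals) touch both mt-Rnr2 and mt-Nd1:
mt-Rnr2 / mt-Tl1 / mt-Nd1: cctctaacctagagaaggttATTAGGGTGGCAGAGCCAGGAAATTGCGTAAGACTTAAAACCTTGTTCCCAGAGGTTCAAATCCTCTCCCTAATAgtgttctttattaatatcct
The second covers MT:15336-15422 in plus-strand letters, with the minus-strand proline tRNA gene mt-Tp in capitals after the end of the plus-strand threonine tRNA gene mt-Tt:
mt-Tt / mt-Tp: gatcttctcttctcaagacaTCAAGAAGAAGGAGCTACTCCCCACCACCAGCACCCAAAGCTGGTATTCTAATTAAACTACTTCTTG
The third is the 14-base tail-to-tail overlap of mt-Nd5 (plus strand, MT:13522-13565) and mt-Nd6 (minus strand, MT:13552-13595), each read in its own direction with the shared bases in capitals:
mt-Nd5: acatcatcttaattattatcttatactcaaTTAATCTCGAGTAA
mt-Nd6: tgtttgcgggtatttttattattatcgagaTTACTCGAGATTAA
A read that reached into a neighbouring gene was given to neither, per the file headers. Strand was ignored too, so reads from the opposite strand over mt-Nd6 or a minus-strand tRNA gene were counted with it.

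A nuclear copy of part of this chromosome, on the minus strand of chromosome 1 (GRCm39 chr1:24650616-24655278), is annotated as 7 genes. The copies matched 99.0% to 99.9% of the length of mt-Co2, mt-Atp6, mt-Co3, mt-Nd4l and mt-Nd3, the last 492 of 1545 bases of mt-Co1 and the first 876 of 1378 bases of mt-Nd4. Copies of mt-Co2, mt-Atp6, mt-Co3, mt-Nd4l and mt-Nd4 had no mismatch. The starts of the other copies show all the differences found, in capitals, with mt-Co1 and mt-Nd3 at MT:6381-6440 and MT:9459-9518:
mt-Co1: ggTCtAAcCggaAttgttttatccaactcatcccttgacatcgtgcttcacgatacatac
Gm29216: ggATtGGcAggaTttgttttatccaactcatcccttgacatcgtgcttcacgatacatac
mt-Nd3: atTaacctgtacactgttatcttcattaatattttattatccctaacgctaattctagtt
Gm28438: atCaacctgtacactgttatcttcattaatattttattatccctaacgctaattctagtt
Counted from the first base of mt-Co1, its copy Gm29216 carried T1056A, C1057T, A1059G, A1060G, C1062A and A1066T, and the 479 bases after these were identical. The copy of mt-Nd3, Gm28438, carried T3C alone. Reads that fit both places equally well were not counted, per the file headers, so the counts of these genes rest on the reads that could be placed. The rRNA genes and mt-Nd1, mt-Nd2, mt-Nd5, mt-Nd6 and mt-Cytb had no match among the 7 copies. The search returned none for mt-Atp8 (MT:7766-7969) either. However, the end of mt-Atp8 overlaps the start of mt-Atp6 (from MT:7927), and those bases lie in the stretch matched by the copy of mt-Atp6. Only the 7 annotated copies were searched, not the chromosome 1 bases between them. The copies of mt-Co2 and mt-Atp6, which flank mt-Atp8, lie as far apart there as their matched stretches do on MT. Whether the bases between match the rest of mt-Atp8 was not tested.

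Libraries held 32739117 to 54890756 gene reads, and the 8 stem cell markers made up 0.192% to 0.25% of them against 0.000449% to 0.000890% for 8 fibroblast markers. The Kdm6a gene stood at 415 to 441 CPM (reads scaled to a common library size) in its own 4 libraries and at 95.7 to 156 CPM in the other 12. By contrast, Kdm4b stood at 85.4 to 103 CPM in its own libraries and 74.9 to 103 CPM elsewhere, and Kdm4a (206 to 300 against 165 to 272 CPM) and Kdm6b (78.1 to 96.4 against 69.1 to 81.4 CPM) overlapped too, so these genes do not check the other labels. The KDM6B libraries stood apart: they carried the highest mitochondrial share, the highest share of cytosolic ribosomal protein mRNA (2.02% to 2.63% against 0.829% to 1.40% elsewhere) and the lowest share of 12 chromatin-retained noncoding RNAs (2.30% to 2.49% against 2.53% to 3.57%). In bulk libraries, a change in the number of cells of a kind and a change in RNA per cell cannot be told apart.

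Mitochondrially encoded RNA made up 0.170% (95% Wilson interval 0.168% to 0.171%) to 0.691% (0.689% to 0.694%) of gene reads, where intervals cover counting error only. Its share was higher with the IDR deleted for every demethylase when the 2 libraries were averaged. The KDM4A full-length libraries held 0.199% and 0.233% and the IDR-deleted ones 0.357% and 0.411%. For KDM4B the values were 0.170% and 0.192% with the full-length protein and 0.225% and 0.258% without the IDR. KDM6A libraries held 0.214% and 0.240% against 0.227% and 0.265%, and here the groups overlapped. KDM6B libraries held 0.536% and 0.531% against 0.659% and 0.691%. Replicate 2 had the higher share in every group other than full-length KDM6B. In the order of group means, KDM4A full-length, KDM6A full-length, KDM4B IDR-deleted and KDM6A IDR-deleted (0.216% to 0.246%) each overlapped the next, whereas KDM4A IDR-deleted (0.384% ± 0.0378, SD, n = 2) and both KDM6B groups stood above them. The 8 groups differed by an exact two-sided permutation test over 2027025 ways of pairing the libraries (p = 5.72e-05, adjusted over 12 measures 0.000172). IDR-deleted exceeded full-length by a mean of 0.42 on the log2 scale (exact two-sided permutation test stratified by demethylase, p = 0.00309, adjusted p = 0.0123).

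As shares of gene reads, the mRNA genes of both strands rose, and whether one class of RNA differed from another in its response was not tested. Counting ignored strand, so the mt-Nd6 values can hold reads from the plus strand. Plus-strand mRNA rose by a mean of 0.51 on the log2 scale and mt-Nd6, the minus-strand mRNA, by 0.60, each with every IDR-deleted library above every full-length library of its demethylase (stratified exact test, p = 0.00154, the smallest that 1296 labelings can give; adjusted p = 0.00926 for each). The 2 rRNA genes together had a mean difference of 0.32 that did not pass (exact p = 0.0926, adjusted p = 0.222): it was 1.06 for KDM4A, 0.30 for KDM4B, -0.30 for KDM6A and 0.24 for KDM6B. Minus-strand tRNA genes had a mean difference of 0.74 (exact p = 0.0185, adjusted p = 0.0556). That value rests mostly on mt-Tp, which drew 4403 reads over the 16 libraries, with mt-Tq next at 153. The plus-strand tRNA genes gave 1.14 (exact p = 0.298, adjusted p = 0.357). By demethylase this was 1.15 for KDM4A, 3.18 for KDM4B, -1.05 for KDM6A and 1.26 for KDM6B. Full-length KDM4B replicate 1 had 0 plus-strand tRNA reads, and 0.5 reads were added before the log. In single contrasts of 2 against 2 libraries an exact p cannot go below 0.333.

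**Figure D1:**
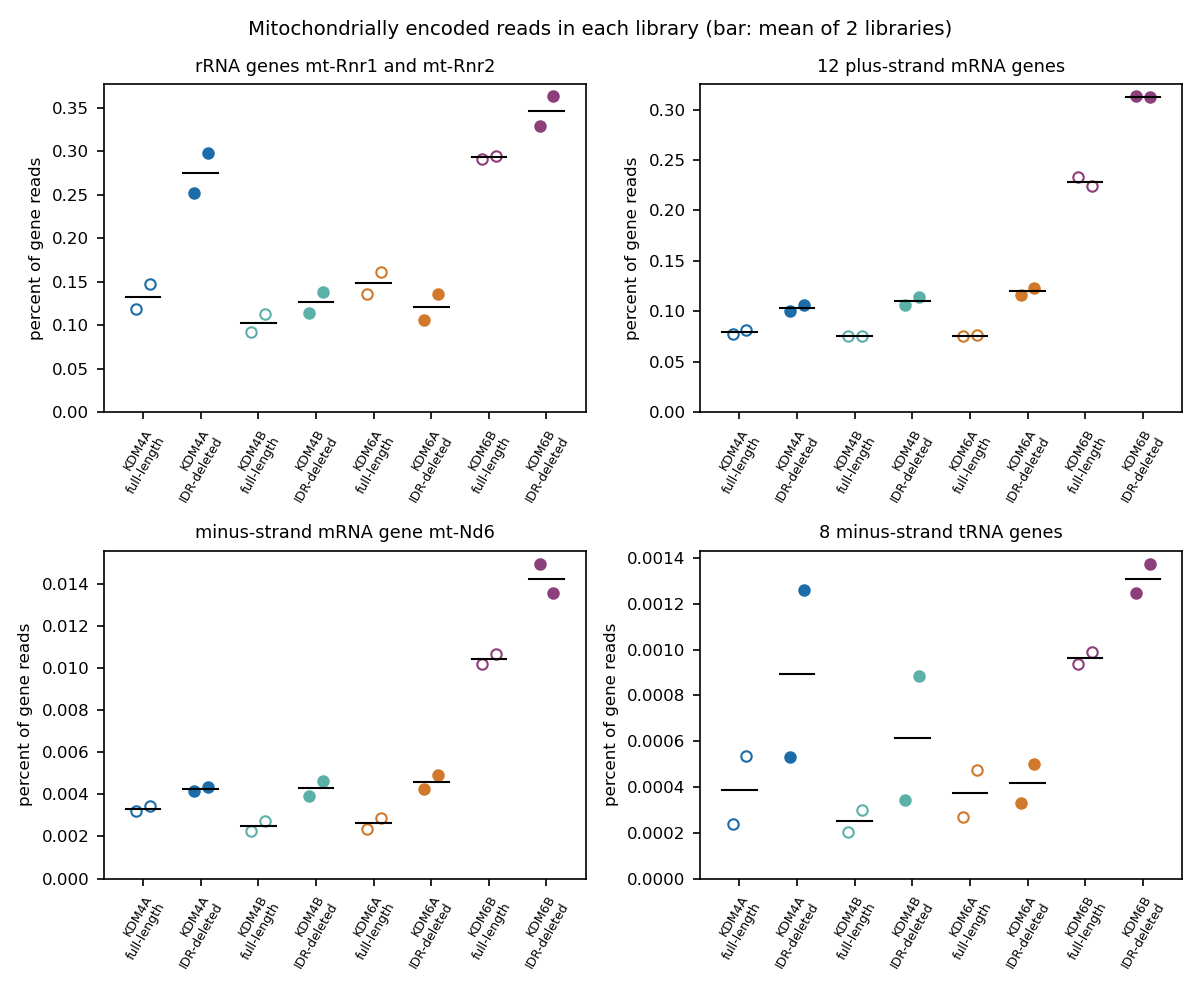
Percent of all gene reads on each class of mitochondrially encoded gene (vertical axes, from 0) in every library; open points are full-length, filled points IDR-deleted, black bars the mean of 2 libraries. Plus-strand mRNA and mt-Nd6 were higher without the IDR for each demethylase, whereas the rRNA genes had their largest difference with KDM4A and a lower mean with KDM6A; the 4 KDM6B libraries lie above the others for mRNA.

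Within the mitochondrial reads, the rRNA share was higher without the IDR for KDM4A and lower for KDM6A, a contrast of signs that was not itself tested. The rRNA genes took 59.3% and 63.3% of mitochondrial reads with full-length KDM4A and 70.7% and 72.7% without its IDR, and the groups did not overlap. With KDM6A they took 63.5% and 66.9% with the full-length protein and 46.9% and 51.3% without the IDR, again without overlap. For KDM4B the values were 54.3% and 58.7% against 50.8% and 53.4%, and for KDM6B the means were 55.0% ± 0.812 and 51.3% ± 1.81 (SD, n = 2). In every group the rRNA share was higher in replicate 2 than in replicate 1. Plus-strand mRNA, which holds nearly all other mitochondrial reads, had means of 36.9% and 27.0% for KDM4A and of 33.4% and 48.8% for KDM6A, full-length first. Across the 8 groups both shares differed (exact permutation tests over pairings, adjusted p = 0.000347 for rRNA and 0.000432 for plus-strand mRNA). Over the 4 demethylases together neither showed a common shift with the deletion (stratified exact tests, adjusted p = 0.27 and 0.491). These libraries were depleted of rRNA before sequencing, per the labels, and the part of that step in the rRNA values was not tested. Reads that fit both an mRNA gene and its chromosome 1 copy were not counted. They are missing from the mRNA share and from the total behind both shares.

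**Figure D2:**
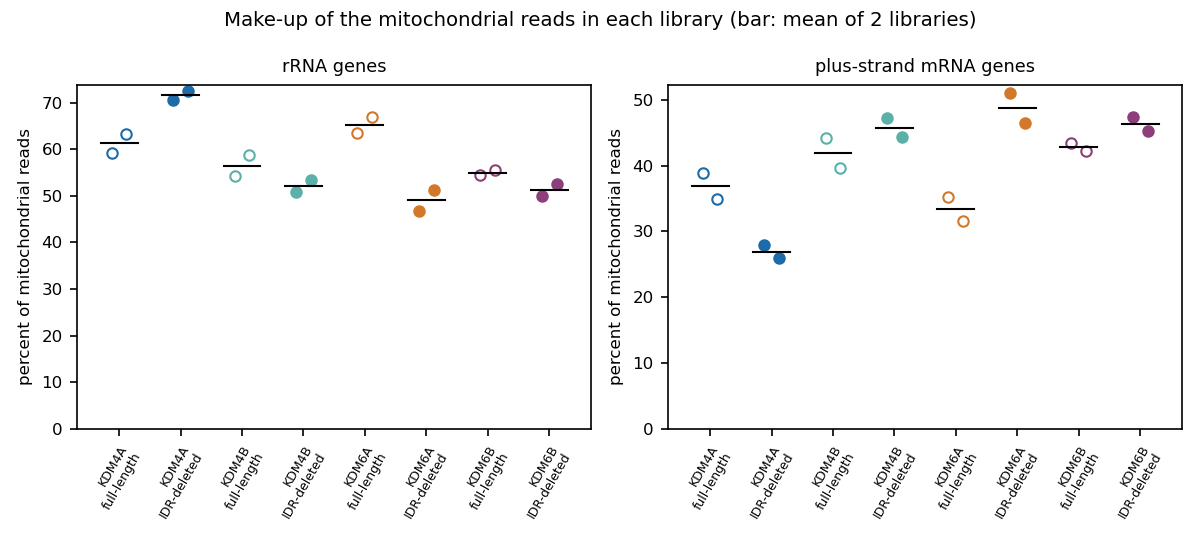
Share of the mitochondrial reads (percent, axes from 0) held by the rRNA genes and by the 12 plus-strand mRNA genes in each library; open points are full-length, filled points IDR-deleted, bars the mean of 2 libraries. The rRNA share ranged from 46.9% to 72.7%, highest with IDR-deleted KDM4A and lowest with IDR-deleted KDM6A.

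Of the 37 genes, 21 passed the filter on low counts: all 15 mRNA and rRNA genes and 6 tRNA genes, while 16 tRNA genes did not pass and were not tested. For the 15 longer genes, "rose" below means a higher level without the IDR that passed edgeR's quasi-likelihood test (Benjamini-Hochberg adjusted p under 0.05 over all 31057 genes tested). None of the 21 tested genes fell in any of the 4 contrasts, but under ERCC spike-in scaling 5 fell in KDM4A, and with a replicate block mt-Rnr2 fell in KDM6A (adjusted p = 0.0351). In KDM4A, 13 of the 15 rose, with a median log2 difference of 0.55 (all genes -0.05; 24.6% of all genes rose and 25.9% fell). In KDM4B, 10 rose, with a median of 0.41 (all genes 0.01; 18.6% rose and 17.6% fell). In KDM6A, 11 rose, with a median of 0.71 (all genes 0.00; 8.3% rose and 8.65% fell). In KDM6B, 10 rose, with a median of 0.42 (all genes 0.00; 9.89% rose and 10.7% fell). Under ERCC scaling the rises numbered 2 in KDM4A (median of the 15 genes -0.10), 6 in KDM4B (0.22), 11 in KDM6A (0.50) and 1 in KDM6B (0.033). Of all 31057 genes, 19230, 11449, 7583 and 13954 passed under that scaling, rises and falls together. The all-gene medians were then -0.70, -0.18, -0.21 and -0.38. Leaving out 1 library at a time gave 10 to 13, 7 to 9, 9 to 11 and 6 to 8 rises, the lowest KDM6B count without full-length replicate 2 or IDR-deleted replicate 1.

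**Figure D3:**
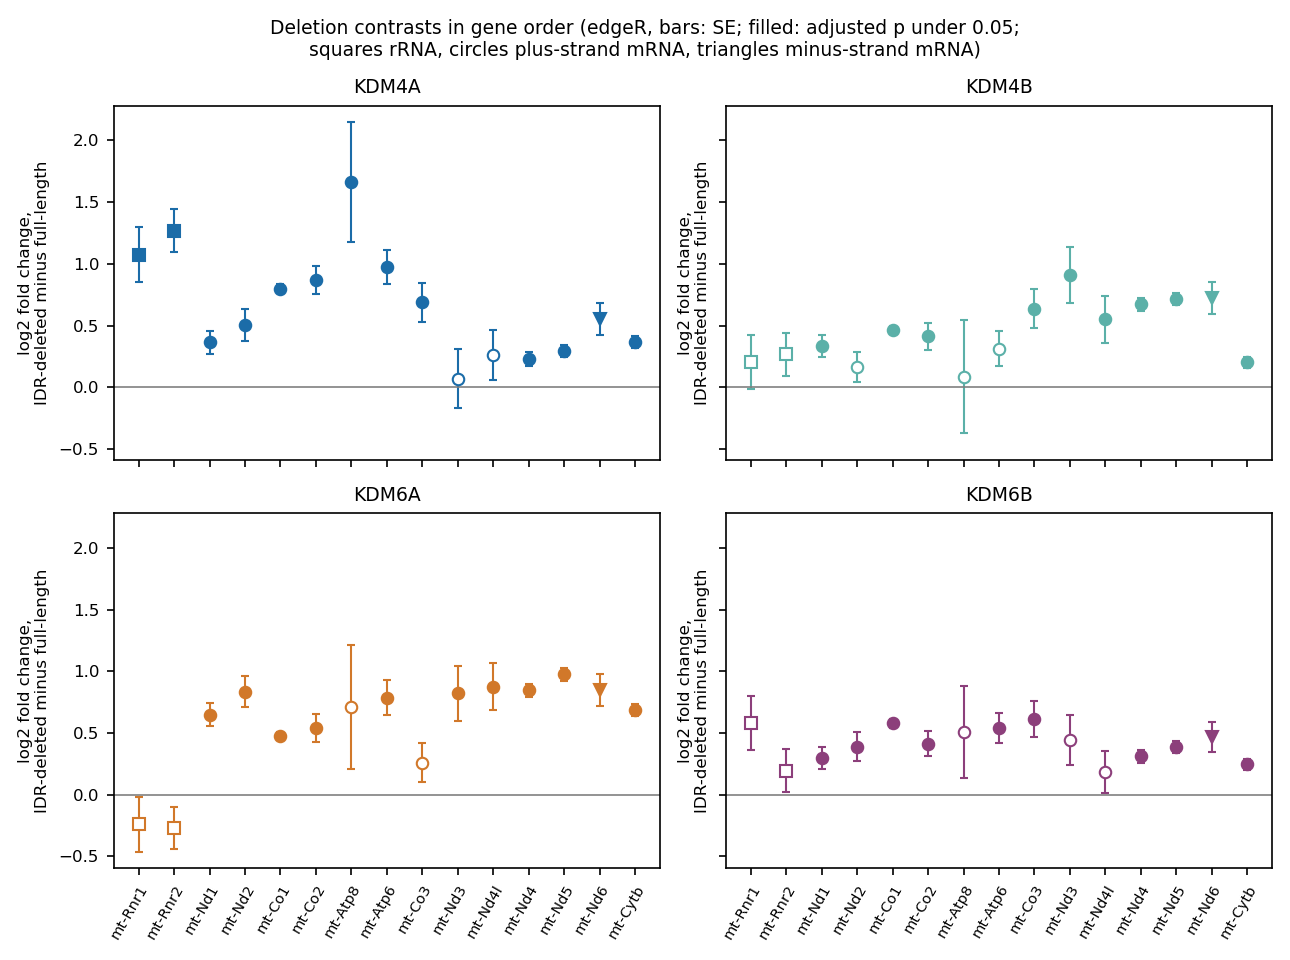
Log2 fold change of IDR-deleted minus full-length (vertical axes, edgeR, bars are SE) for the 15 mRNA and rRNA genes in their order on the chromosome, 1 panel for each demethylase; filled symbols passed at adjusted p under 0.05. KDM4A shows the rRNA genes and the genes from mt-Co1 to mt-Co3 highest, and KDM6A shows rRNA genes below 0 with most mRNA genes between 0.47 and 0.98.

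The rRNA genes rose only in KDM4A by this test; with a replicate block mt-Rnr2 also passed in KDM4B (adjusted p = 0.0213) and mt-Rnr1 in KDM6B (adjusted p = 0.00411). mt-Rnr2, the large-subunit rRNA, stood at 980 and 1211 CPM with full-length KDM4A and at 2422 and 2861 CPM without the IDR. That is a rise of 1.27 ± 0.17 on the log2 scale (SE, adjusted p = 0.000269). In KDM4B it stood at 740 and 902 against 898 and 1075 CPM, and in KDM6A at 1096 and 1284 against 873 and 1103 CPM, with overlap in both. KDM6B libraries held 2651 and 2699 against 2925 and 3203 CPM. mt-Rnr1, the small-subunit rRNA, showed the same layout. It stood at 179 and 233 against 381 and 486 CPM in KDM4A, a rise of 1.07 ± 0.22 (adjusted p = 0.00338). Its levels were 145 and 182 against 167 and 211 CPM in KDM4B, and 186 and 221 against 147 and 198 CPM in KDM6A. KDM6B libraries held 441 and 437 against 604 and 709 CPM of mt-Rnr1, which did not overlap but missed the threshold (log2 difference 0.58 ± 0.22, adjusted p = 0.107). A fit of the 4 KDM4A libraries alone ended the call of mt-Rnr1 there (adjusted p = 0.0785).

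Of the 12 plus-strand mRNA genes, 10 rose for KDM4A and for KDM6A and 9 for KDM4B and for KDM6B, and mt-Nd1, mt-Co1, mt-Co2, mt-Nd4, mt-Nd5 and mt-Cytb rose in all 4 contrasts. Among the genes of complex IV, cytochrome c oxidase, mt-Co1 encodes the catalytic subunit. It stood at 341 and 351 CPM with full-length KDM4A and 586 and 619 CPM without the IDR. Its levels were 293 and 294 against 399 and 410.3 CPM in KDM4B, 302 and 290.0 against 404 and 418 CPM in KDM6A, and 1279 and 1245 against 1874 and 1892 CPM in KDM6B. No pair of groups overlapped, and the log2 rises of mt-Co1 were 0.80, 0.46, 0.47 and 0.58 with an SE of 0.03 in each (adjusted p from 1.55e-21 to 2.8e-13). mt-Co2, which takes electrons from cytochrome c, rose by 0.87, 0.41, 0.54 and 0.42, and its KDM6B call was lost without full-length replicate 2 or IDR-deleted replicate 1 (adjusted p = 0.0858 and 0.189). mt-Co3, a structural subunit, rose by 0.69, 0.64 and 0.61 in KDM4A, KDM4B and KDM6B, with 0.26 ± 0.16 in KDM6A (adjusted p = 0.33). In KDM6B it was among the 2 largest rises, from 34.4 and 24.2 to 49.5 and 40.3 CPM, a call lost in a fit of those 4 libraries alone (adjusted p = 0.296). Its KDM4B call was lost without full-length replicate 2 or IDR-deleted replicate 1 (adjusted p = 0.0579 and 0.0594).

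Complex V, the ATP synthase, has its membrane subunits mt-Atp6 and mt-Atp8 in this genome. mt-Atp8 gave the largest log2 rise of any longer gene in KDM4A, 1.66 ± 0.49 (adjusted p = 0.00417), on the lowest counts: 0.349 and 0.182 CPM against 0.786 and 0.891 CPM, with 9 to 121 reads per library in the series. Without KDM4A full-length replicate 2 that call was lost (adjusted p = 0.0807). mt-Atp6 rose by 0.98 ± 0.14 in KDM4A, 0.79 ± 0.14 in KDM6A and 0.54 ± 0.12 in KDM6B, and gave 0.31 ± 0.14 in KDM4B (adjusted p = 0.0835).

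Complex I, the NADH dehydrogenase, takes 6 plus-strand subunits. All 6 rose in KDM6A, and 5 of them had their largest log2 difference there, while that of mt-Nd3 was larger in KDM4B. In KDM6A mt-Nd5, a proton-pumping subunit, went from 166 and 169 to 322 and 336 CPM, a rise of 0.98 ± 0.05 (adjusted p = 1.25e-13). mt-Nd4l, the smallest subunit, went from 2.14 and 2.97 to 4.11 and 5.18 CPM (0.88 ± 0.19, adjusted p = 0.000838), a call lost without KDM6A full-length replicate 1 (adjusted p = 0.0691). mt-Nd1, which lies next to the rRNA genes, stood in KDM6A at 79.7 and 81.0 against 118 and 134 CPM (0.65 ± 0.09). Its rises were smaller elsewhere: 59.97 and 68.5 against 77.4 and 88.0 CPM in KDM4A, 76.2 and 78.1 against 92.2 and 102 CPM in KDM4B, and 197 and 173 against 224 and 232 CPM in KDM6B (log2 0.36, 0.33 and 0.30). The KDM4A call of mt-Nd1 was lost without IDR-deleted replicate 2 (adjusted p = 0.0501), the KDM4B call without either full-length replicate or IDR-deleted replicate 2 (0.0552 to 0.0996), and the KDM6B call without full-length replicate 2 or either IDR-deleted replicate (0.0955 to 0.195). mt-Nd2 rose by 0.50, 0.83 and 0.39 in KDM4A, KDM6A and KDM6B, with 0.17 ± 0.12 in KDM4B (adjusted p = 0.348); the KDM4A call was lost without IDR-deleted replicate 2 (0.0596) and the KDM6B call without any 1 of its 4 libraries (0.0708 to 0.196). mt-Nd3 rose in KDM4B (0.91) and KDM6A (0.82), with 0.07 ± 0.24 in KDM4A (adjusted p = 0.839). Those calls were lost without KDM4B IDR-deleted replicate 2 (0.182) and without KDM6A full-length replicate 1 or IDR-deleted replicate 1 (0.147 and 0.0714). mt-Nd4 rose by 0.23, 0.67, 0.84 and 0.31 and mt-Nd5 by 0.29, 0.72, 0.98 and 0.38 in the order KDM4A, KDM4B, KDM6A, KDM6B, and the KDM4A call of mt-Nd4 was lost without IDR-deleted replicate 2 (adjusted p = 0.0586).

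The complex III gene mt-Cytb, cytochrome b, stood at 67.7 and 67.2 against 84.8 and 89.1 CPM in KDM4A, 72.3 and 75.9 against 81.9 and 88.3 CPM in KDM4B, 66.2 and 66.3 against 104 and 110 CPM in KDM6A, and 198 and 196 against 230 and 238 CPM in KDM6B. All 4 pairs were apart, and the log2 rises were 0.37, 0.20, 0.69 and 0.25.

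On the minus strand mt-Nd6, the sole mRNA there and a further complex I subunit, rose in all 4 contrasts, in counts that ignored strand. It stood at 31.3 and 33.5 against 46.3 and 48.8 CPM in KDM4A and at 21.9 and 26.5 against 36.6 and 43.2 CPM in KDM4B. In KDM6A its levels were 22.1 and 27.0 against 40.9 and 47.1 CPM, and in KDM6B 108 and 113 against 160 and 146 CPM. Every IDR-deleted library exceeded both full-length ones, and the log2 rises were 0.55 ± 0.13, 0.72 ± 0.13, 0.85 ± 0.13 and 0.47 ± 0.12 (adjusted p 0.00417, 0.00128, 0.00111 and 0.0208). The KDM6B call was lost without either full-length replicate or IDR-deleted replicate 1 (adjusted p 0.0817 to 0.149). As a share of mitochondrial reads, mt-Nd6 took 1.54% ± 0.0966 with full-length and 1.11% ± 0.0756 with IDR-deleted KDM4A, whereas in KDM6A it took 1.15% ± 0.0769 and 1.87% ± 0.0149 (SD, n = 2 for each).

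Whether the deletion acted differently between the members of a demethylase pair was tested directly, as an interaction in the same fit. KDM4A minus KDM4B passed for 6 of the 15 longer genes, 4 with a higher and 2 with a lower effect in KDM4A (31.1% of all genes passed). mt-Rnr2, mt-Co1, mt-Co2 and mt-Atp6 had the larger value in KDM4A, and mt-Nd4 and mt-Nd5 in KDM4B. Under ERCC scaling that split became 0 higher and 7 lower in KDM4A: mt-Co1 (-0.13) and mt-Co2 (-0.011) changed sign, and these and mt-Rnr2 and mt-Atp6 no longer passed. Of all 31057 genes, 12719 passed that comparison under ERCC scaling, in either direction. KDM6A minus KDM6B passed for 4 genes, mt-Nd4l, mt-Nd4, mt-Nd5 and mt-Cytb, each with the larger value in KDM6A (21.8% of all genes passed). With a replicate block 7 genes passed with the larger and 2, mt-Rnr1 (-0.82) and mt-Rnr2 (-0.46), with the smaller value in KDM6A, and 7 genes in place of 4 with the larger value in KDM4A than in KDM4B. The 4 genes higher for KDM4A became 2 without KDM4A full-length replicate 1, KDM4B full-length replicate 1 or KDM4B IDR-deleted replicate 1. mt-Rnr1 had a difference of 0.87 ± 0.31 between KDM4A and KDM4B (adjusted p = 0.0702) and mt-Nd6 one of -0.17 ± 0.18 (adjusted p = 0.542). None of the 6 tested tRNA genes passed either interaction. The opposite signs of the rRNA values in KDM4A and KDM6A were not tested against each other.

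Among all 8 groups the 15 longer genes each differed (edgeR F test, as did 75.8% of all genes). The same held among the 4 full-length groups (61.4% of all genes) and among the 4 IDR-deleted groups (69.6% of all genes). Under ERCC scaling mt-Rnr1 did not pass among the 8 groups or the full-length groups (adjusted p = 0.0828 and 0.432), nor mt-Nd3 among the full-length groups (0.347). The order of groups was alike for mRNA genes at the top, where the means of the KDM6B groups stood above all others. For mt-Atp8, however, full-length KDM6B replicate 2 (0.813 CPM) lay below IDR-deleted KDM4A replicate 2 (0.891 CPM). For mt-Nd3, full-length KDM6B replicate 1 (4.94 CPM) lay below IDR-deleted KDM4B replicate 2 (4.96 CPM). For mt-Co1 the order of means ran from KDM4B full-length through KDM6A full-length, KDM4A full-length, KDM4B IDR-deleted, KDM6A IDR-deleted, KDM4A IDR-deleted and KDM6B full-length to KDM6B IDR-deleted, and only the first pair and the pair KDM4B and KDM6A IDR-deleted overlapped. The rRNA gene mt-Rnr2 was ordered otherwise: KDM4B full-length, KDM4B IDR-deleted, KDM6A IDR-deleted, KDM4A full-length and KDM6A full-length each overlapped the next, and KDM4A IDR-deleted overlapped KDM6B full-length.

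Per kilobase of gene, levels spanned a wide range along one chromosome. Over 16 libraries the median level was 731 CPM per kb for mt-Rnr2 (467 to 2024), 263 for mt-Co1, 226 for mt-Rnr1 and 144 for mt-Nd5. It was 94.1 for mt-Nd1, 81.0 for mt-Nd6, 75.6 for mt-Cytb and 24.5 for mt-Nd2. The 5 genes matched almost whole by the nuclear copy lay at the bottom, with 15.7 CPM per kb for mt-Co2, 15.1 for mt-Co3, 11.9 for mt-Nd4l, 8.33 for mt-Nd3 and 7.16 for mt-Atp6. mt-Atp8, which lies between copied neighbours and overlaps mt-Atp6, was lowest at 2.60. Since reads that fit 2 places or 2 genes were left out, these low levels per length cannot be compared with those of the other genes.

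**Figure D4:**
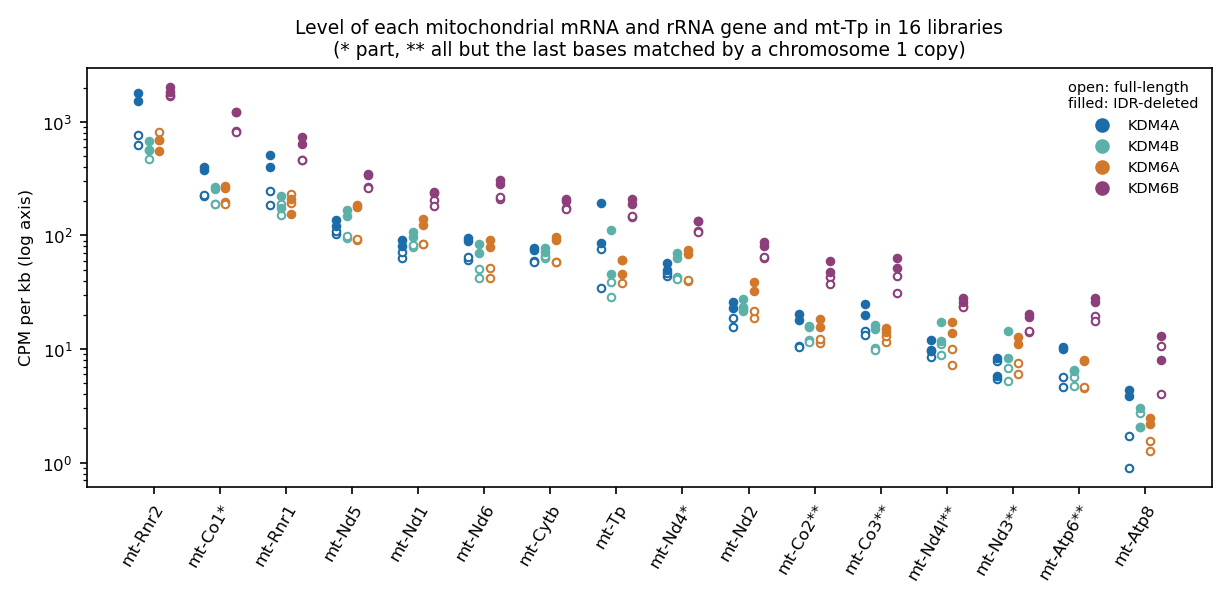
CPM per kb of gene (log axis) for the 15 mRNA and rRNA genes and mt-Tp, ordered by their median over 16 libraries; points are single libraries, coloured by demethylase, open for full-length and filled for IDR-deleted. Levels run from 467 to 2024 CPM per kb for mt-Rnr2 down to 0.893 to 12.9 for mt-Atp8, and genes almost wholly matched by the nuclear copy (2 stars) sit at the low end.

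The 22 tRNA genes, with a median length of 68.5 bases, took 0.12% to 0.409% of mitochondrial reads, and 5 of them (mt-Tn, mt-Ty, mt-Ts1, mt-Ts2 and mt-Tl2) drew 0 reads in all 16 libraries. The 16 that were not tested never exceeded 12 reads in a library, too few to compare groups. Reads that touched a neighbouring gene were left out, so these counts do not give the level of RNA over the tRNA genes: the deposited repeat table, counted without the genes, held 140 to 560 reads per library over mt-Tl1 and 181 to 1244 over mt-Ts1, for which the gene table held 0 to 5 and 0. mt-Ts1, mt-Td, mt-Tk, mt-Tg and mt-Tr also lie between genes with a chromosome 1 copy. Whether reads over them were left out because they fit chromosome 1 too was not tested. mt-Tp had the most, 78 to 717 reads, and borders the control region, which has no gene entry. It held 99 and 251 reads against 198 and 375 in KDM4A, 78 and 100 against 144 and 373 in KDM4B, 113 and 143 against 136 and 213 in KDM6A, and 448 and 438 against 577 and 717 in KDM6B. None of these contrasts passed for mt-Tp (log2 1.31 ± 0.55, 1.22 ± 0.59, 0.12 ± 0.59 and 0.44 ± 0.50). Of the 6 tested tRNA genes, 2 passed, both in KDM4B. The methionine tRNA gene mt-Tm had 0 and 2 reads against 8 and 20 (ratio 11.4, 95% counting interval 2.87 to 98.5; edgeR adjusted p = 0.0142). The alanine tRNA gene mt-Ta, on the minus strand, had 0 and 0 reads against 4 and 12, which is at least 4.33-fold higher than a floor of 3 reads over the full-length group (edgeR adjusted p = 0.0403). Both calls were lost without KDM4B full-length replicate 1 or IDR-deleted replicate 2, and that of mt-Ta also without full-length replicate 2 (adjusted p 0.146 to 0.212). The glutamine tRNA gene mt-Tq had 0 reads in both full-length KDM4A libraries against 0 and 25, and mt-Tv (valine) 1 and 31 against 6 and 27, so single libraries of a group differed widely.

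The 7 genes of the chromosome 1 copy drew reads of their own, from 110 to 6350 per library. Gm28438, the copy of mt-Nd3, drew a median of 5.57 reads for each read of mt-Nd3, the copies of mt-Co2, mt-Atp6, mt-Co3 and mt-Nd4l 1.27 to 1.62, and those of mt-Nd4 and mt-Co1 0.129 and 0.0759. Of the 7 copies, 4 rose for KDM4A, 5 for KDM4B, 6 for KDM6A and 5 for KDM6B, and none fell, where 24.6%, 18.6%, 8.3% and 9.89% of all genes rose. For KDM6A the copy of mt-Nd4, Gm28439, rose by 1.06 ± 0.11 on the log2 scale beside 0.84 ± 0.06 for mt-Nd4. For KDM4A the copies of mt-Nd3 and mt-Nd4l gave -0.13 ± 0.09 and -0.14 ± 0.17 beside 0.07 ± 0.24 and 0.26 ± 0.20 for the genes, and the copy of mt-Atp6 rose by 0.88 ± 0.14 beside 0.98 ± 0.14. Whether these reads came from chromosome 1 or from mitochondria was not tested. With the reads of the copies added to their genes, 13, 10, 11 and 11 of the 15 longer genes rose in KDM4A, KDM4B, KDM6A and KDM6B, and none fell. The 4 longest plus-strand mRNA genes with no match (mt-Nd1, mt-Nd2, mt-Nd5 and mt-Cytb) held together 0.0350% of gene reads with full-length and 0.0387% with IDR-deleted KDM4A. Their share was 0.0364% and 0.0533% in KDM4B, 0.0357% and 0.0625% in KDM6A and 0.0876% and 0.109% in KDM6B, and no pair of groups overlapped.

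**Figure D5:**
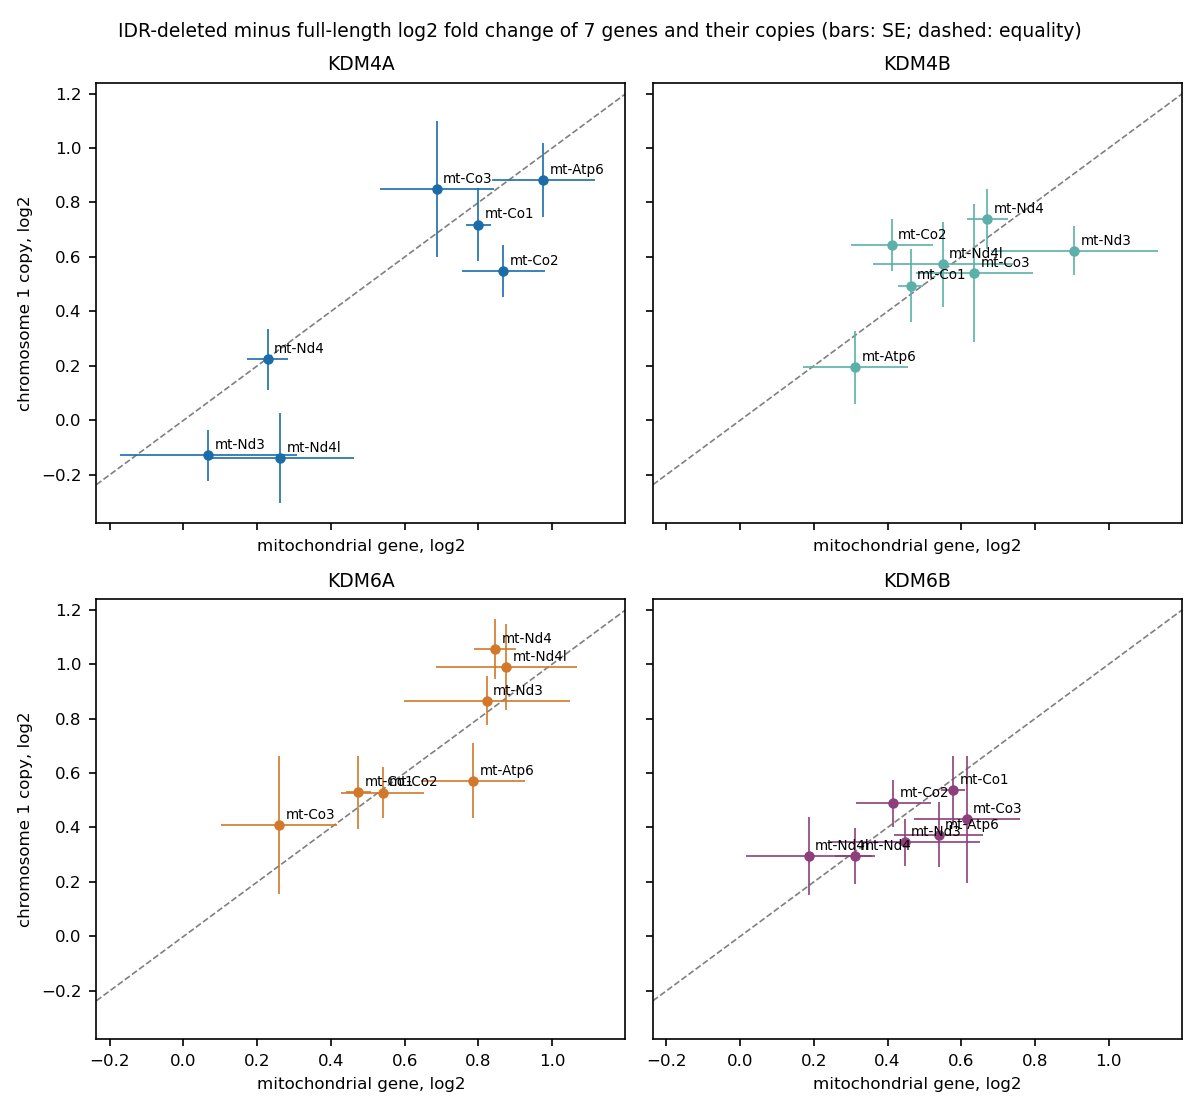
Log2 fold change of IDR-deleted minus full-length for 7 mitochondrial genes (horizontal) and for the chromosome 1 gene that matches each (vertical), with SE bars and a dashed line of equality, 1 panel for each demethylase. For KDM4A the copies of mt-Nd3 and mt-Nd4l lie below 0 and those of mt-Co1, mt-Co2, mt-Co3 and mt-Atp6 between 0.55 and 0.88.

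Nuclear genes that serve mitochondrial RNA and the respiratory complexes are read against all genes tested, of which 24.6%, 18.6%, 8.3% and 9.89% rose and 25.9%, 17.6%, 8.65% and 10.7% fell in KDM4A, KDM4B, KDM6A and KDM6B. Of 24 genes for mitochondrial transcription and DNA maintenance, 13 rose and 6 fell in KDM4A, 11 and 2 in KDM4B, 2 and 5 in KDM6A, and 0 and 1 in KDM6B, so the falls in KDM4A stood near the share of all genes. Polrmt, the mitochondrial RNA polymerase, rose by 0.38 ± 0.08 in KDM4A and did not pass in the other contrasts (log2 0.06 to 0.10). Tfam, which packs mitochondrial DNA and starts transcription, rose by 0.43 ± 0.07 in KDM4A and 0.32 ± 0.07 in KDM4B, with -0.09 and 0.01 in KDM6A and KDM6B. Ssbp1, the single-strand binding protein, fell by 1.01 in KDM4A, 0.52 in KDM4B and 0.28 in KDM6B on the log2 scale, and Top1mt, the mitochondrial topoisomerase, rose by 1.25 and 0.71 in KDM4A and KDM4B and fell by 0.54 in KDM6A. Of 44 genes for mitochondrial RNA processing and decay, 18 rose and 13 fell in KDM4A, 8 and 15 in KDM4B, 3 and 5 in KDM6A, and 6 and 7 in KDM6B, where the rises in KDM4B and KDM6A stood near or below the share of all genes. Lrpprc, which binds and stabilises mitochondrial mRNAs, rose by 0.42 ± 0.04 in KDM4A and 0.26 ± 0.04 in KDM4B, with -0.06 and -0.07 in KDM6A and KDM6B. Slirp, its partner, was listed at no more than 0.505 CPM in any group mean. It fell by 2.62 ± 0.82 in KDM4A, with -0.35, -0.71 and -0.24 elsewhere.

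The 85 tested nuclear-encoded subunits of the respiratory complexes rose more often than they fell: 54 and 2 in KDM4A, 49 and 8 in KDM4B, 19 and 2 in KDM6A, and 33 and 2 in KDM6B. Their median log2 differences were 0.44, 0.32, 0.16 and 0.23, against 0.55, 0.41, 0.71 and 0.42 for the 15 longer mitochondrially encoded genes. Atp5a1, of complex V, rose by 0.74 ± 0.04 in KDM4A, and Cox6c, of complex IV, by 0.73 ± 0.06 in KDM4B and 0.47 ± 0.06 in KDM6B. Of 78 mitochondrial ribosomal protein genes, 27 rose and 10 fell in KDM4A, 16 and 9 in KDM4B, 17 and 0 in KDM6A, and 8 and 5 in KDM6B, and the rises in KDM4B and KDM6B stood near the shares of 18.6% and 9.89% over all genes. The 17 mitochondrial aminoacyl-tRNA synthetase genes gave 5 rises and 7 falls in KDM4A, 4 and 7 in KDM4B, 1 and 1 in KDM6A, and 0 and 1 in KDM6B, beside 24.6%, 18.6%, 8.3% and 9.89% rises and 25.9%, 17.6%, 8.65% and 10.7% falls over all genes.

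RNAs of other cell compartments moved in the same contrasts. Over all genes tested, 24.6%, 18.6%, 8.3% and 9.89% rose and 25.9%, 17.6%, 8.65% and 10.7% fell in KDM4A, KDM4B, KDM6A and KDM6B. Of 81 cytosolic ribosomal protein genes, whose spliced mRNAs lie mostly outside the nucleus, 65, 64, 25 and 70 rose and 6, 1, 1 and 0 fell in KDM4A, KDM4B, KDM6A and KDM6B (median log2 0.50, 0.32, 0.11 and 0.37). Of 12 chromatin-retained noncoding RNAs, 3, 1, 5 and 4 rose and 7, 9, 5 and 5 fell (median -0.47, -0.25, -0.08 and -0.08). The 3 rises in KDM4A stood near the share of all genes. The summed share of the 12 RNAs in gene reads went the other way from the median in KDM4A and KDM6B. In KDM4A it went from 2.78% and 2.86% to 3.40% and 3.57%. In KDM6B it went from 2.30% and 2.35% to 2.43% and 2.49%. Neat1, the scaffold RNA of paraspeckles, fell by 1.19, 0.87, 0.56 and 0.27 on the log2 scale. Kcnq1ot1 did not go one way: it had -1.69 in KDM4A and -0.84 in KDM4B but 0.51 in KDM6A, each past the threshold. The part of such shifts in the mitochondrial values was not tested.

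Scaled to the ERCC spike-in RNAs, which the table holds and the labels do not mention, the picture changed. ERCC reads made up 0.578% to 1.53% of ERCC and gene reads together. Mitochondrial reads per ERCC read were 0.273 ± 0.0258 with full-length and 0.353 ± 0.0483 with IDR-deleted KDM4A, 0.307 ± 0.0224 and 0.350 ± 0.0287 for KDM4B, 0.319 ± 0.0149 and 0.304 ± 0.0353 for KDM6A, and 0.447 ± 0.0261 and 0.439 ± 0.00953 for KDM6B (SD, n = 2). The deletion gave no common shift by this measure (stratified exact test, mean log2 difference 0.11, p = 0.16, adjusted p = 0.27). ERCC scaling moved the median of all genes from -0.05 to -0.70 in KDM4A, from 0.01 to -0.18 in KDM4B, from 0.00 to -0.21 in KDM6A and from 0.00 to -0.38 in KDM6B. Under it, mt-Rnr2 (0.62) and mt-Co1 (0.15) rose in KDM4A and 5 genes fell there (mt-Nd1, mt-Nd3, mt-Nd4, mt-Nd5 and mt-Cytb, from -0.58 to -0.29), and the rise of mt-Rnr1 no longer passed (0.43, adjusted p = 0.123). In KDM4B 6 of the 15 longer genes rose, in KDM6A 11 and in KDM6B 1 (mt-Co1, 0.20), and none fell. With this scaling 19230, 11449, 7583 and 13954 of all 31057 genes passed in KDM4A, KDM4B, KDM6A and KDM6B, in either direction. The median of the 15 in KDM4A was then -0.10, which stayed above the all-gene median of -0.70. When and at what amount the ERCC RNAs were added is not given in the sources used here.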

How the data were processed

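Raw read counts per gene were deposited by the authors, made, per the file headers, with featureCounts 2.0.3 from HISAT2 alignments to GRCm39 with spike-in sequences, at a mapping quality of at least 30. Each read of a pair was counted, strand was ignored, and reads matching several places or genes were not assigned, per the file headers. The deposited repeat table holds counts per repeat copy made in the same way. No column was left out. Symbols came from GENCODE M21, and copies were matched with BLAST 2.17.0. Depth per library is given with the results.

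All 8 groups entered 1 robust quasi-likelihood fit in edgeR 4.0.16 (R 4.3.3), which left 8 residual degrees of freedom; genes passed filterByExpr at a minimum count of 10, spike-ins were left out, and libraries were scaled by TMM, with Benjamini-Hochberg adjustment over 31057 genes at 0.05. The SE was taken from the fold change and F. CPM uses TMM-scaled library sizes. Shares were compared on the log2 scale by exact permutation, with 0.5 reads added where a library had none, and adjusted over 12 measures. The procedure was tested on simulated data.

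The genes and lists were chosen with earlier results of these data known. All 37 genes were eligible by name; values per library were given for the rRNA genes, mt-Nd6, mt-Co1, mt-Cytb, mt-Nd1 and, per contrast, the 2 largest rises past the threshold; other values, among them those of mt-Tp, mt-Tq and mt-Tv, were chosen after they were seen. Of each list up to 2 genes with the smallest p per contrast were eligible, and Polrmt, Tfam, Lrpprc and Slirp always. Alternatives were DESeq2 1.42.0, median-ratio, ERCC and non-mitochondrial scaling, no filter, a fit of 4 libraries, a replicate block, other denominators and leaving out libraries. Adding the reads of the chromosome 1 copies, leaving out the KDM6B libraries and the share of the genes without a copy were added after seeing the data.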

Additional observations from a re-analysis of the deposited data

Results flagged for a closer look

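In 10 cases the effect of deleting the IDR on a mitochondrially encoded gene differed between the 2 demethylases of a pair, by edgeR's interaction test adjusted over 31057 genes. Of the 21 tested genes, 6 passed for KDM4A minus KDM4B and 4 for KDM6A minus KDM6B. These counts stood near the 31.1% and 21.8% of all genes that passed. Between KDM4A and KDM4B, mt-Rnr2 had a log2 difference of 1.00 ± 0.24 (adjusted p = 0.0136), which no longer passed without KDM4A full-length replicate 1, KDM4A IDR-deleted replicate 2, KDM4B full-length replicate 2 or KDM4B IDR-deleted replicate 1 (adjusted p 0.0513 to 0.0604). mt-Co1 had 0.34 ± 0.05 (adjusted p = 4.7e-07), which turned to -0.13 under ERCC scaling (adjusted p = 0.225). mt-Co2 had 0.46 ± 0.16 (adjusted p = 0.0255), which no longer passed without either KDM4A full-length replicate, KDM4A IDR-deleted replicate 1, KDM4B full-length replicate 1 or KDM4B IDR-deleted replicate 1, nor with the reads of its chromosome 1 copy added (0.15, adjusted p = 0.306). mt-Atp6 had 0.66 ± 0.20 (adjusted p = 0.00905), which no longer passed without KDM4A full-length replicate 1 (0.0867) or KDM4B full-length replicate 1 (0.105). Under ERCC scaling mt-Co2 turned to -0.011 (adjusted p = 0.971), and mt-Rnr2 (0.54, adjusted p = 0.105) and mt-Atp6 (0.20, adjusted p = 0.517) no longer passed.

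The complex I genes mt-Nd4 and mt-Nd5 had the larger rise in KDM4B, by -0.44 ± 0.08 (adjusted p = 2.79e-05) and -0.43 ± 0.07 (2.32e-05). Between KDM6A and KDM6B, mt-Nd4 had 0.53 ± 0.08 (2.52e-06), mt-Nd5 0.59 ± 0.07 (4.01e-07) and mt-Cytb 0.44 ± 0.07 (2.66e-06). mt-Nd4l had 0.69 ± 0.26 (adjusted p = 0.0493), which passed only narrowly and no longer did without KDM6A full-length replicate 1, KDM6A IDR-deleted replicate 2 or any of the 4 KDM6B libraries (0.076 to 0.307), nor with DESeq2 (0.067).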

How the results depend on the processing

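Scaling changed most. With ERCC scaling the medians of the 15 longer genes became -0.10 in KDM4A, 0.033 in KDM6B and -0.30 for KDM4A minus KDM4B. KDM4A had 2 genes higher and 5 lower, KDM4B 6 higher, KDM6B 1 higher, KDM4A minus KDM4B 0 higher and 7 lower, and KDM6A minus KDM6B 7 higher. Of all 31057 genes, 19230 passed in either direction in KDM4A, 11449 in KDM4B and 13954 in KDM6B with this scaling. For KDM4A minus KDM4B 12719 passed, and for KDM6A minus KDM6B 7410. Reversed in KDM4A were mt-Nd1 (-0.29), mt-Nd2 (-0.15), mt-Nd3 (-0.58), mt-Nd4 (-0.42), mt-Nd5 (-0.36), mt-Nd6 (-0.10) and mt-Cytb (-0.29). In KDM6B mt-Nd1 (-0.086), mt-Nd4 (-0.070) and mt-Cytb (-0.13) reversed, and in KDM4A minus KDM4B mt-Nd1 (-0.43), mt-Co1 (-0.13), mt-Co2 (-0.011) and mt-Cytb (-0.30). The cause was not tested.

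Replicate numbers carry no pairing in the labels. Deviations of same-numbered libraries correlated at 0.103 to 0.172 between the 6 groups other than KDM6B and at -0.0026 to 0.0338 with a KDM6B group. Those correlations were taken over all 31057 genes tested. Among the mitochondrial reads, the rRNA share was higher and the plus-strand mRNA share lower in replicate 2 of every group. The source of this offset was not tested. With a replicate block, KDM6A had 1 gene lower (mt-Rnr2, -0.27), KDM4A minus KDM4B 7 higher, and KDM6A minus KDM6B 7 higher and 2 lower; the minus-strand tRNA differences of 0.74 (of gene reads) and 0.32 (of mitochondrial reads) had exact adjusted p of 0.0234 and 0.0375. Adding copy reads gave 4 lower for KDM4A minus KDM4B, no filter gave 7 higher for KDM6A minus KDM6B, and DESeq2 gave 1 lower there. Leaving out single replicates gave 6 to 8 higher in KDM6B, 2 to 6 higher for KDM4A minus KDM4B, 0 to 1 lower for KDM6A minus KDM6B, and 0.57 to 0.91 for minus-strand tRNA.

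For shares of gene reads, the minus-strand tRNA difference passed with rRNA genes out of the denominator (0.74), with ERCC reads in it (0.74) and with TMM sizes (0.79, and exact p = 0.0425 across groups). Without KDM4A, 3 shares of mitochondrial reads passed: plus-strand mRNA (0.26), mt-Nd6 (0.39) and rRNA (-0.21). Without KDM4B, the total (0.43), plus-strand mRNA (0.50) and mt-Nd6 (0.54) no longer passed, nor did they without KDM6B (0.45, 0.53 and 0.65); fewer libraries leave fewer labelings. Without KDM6A, rRNA (0.53) and minus-strand tRNA (0.93) passed. Mitochondrial reads per ERCC read no longer differed across groups without the 4 KDM6B libraries (exact adjusted p = 0.337). Changes in tRNA genes are limited by the few reads assigned to them, since reads touching 2 genes were left out. The minus-strand tRNA share rests mostly on mt-Tp.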

Other observations

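The deposited repeat table annotates 6 stretches of the mitochondrial chromosome, and it was counted without the neighbouring genes. Its entry for the mt-Tl1 tRNA held 140 to 560 reads per library where the gene table gave mt-Tl1 0 to 5. The mt-Ts1 stretch, a serine tRNA on the minus strand at MT:6870-6938, held 181 to 1244 reads against 0 in the gene table, and the mt-Tq stretch 60 to 193 against 0 to 25. With KDM6A the mt-Tl1 stretch held 166 and 140 reads with the full-length protein and 307 and 560 without the IDR, and the 2 groups did not overlap. Its CPM differed by 1.19 on the log2 scale, untested, against 0.30, 0.17 and -0.024 for KDM4A, KDM4B and KDM6B, where the groups overlapped. In the order KDM4A, KDM4B, KDM6A, KDM6B, the mt-Tq stretch had 0.73, 0.31, 0.71 and -0.21. The mt-Ts1 stretch had 0.96, 0.24, 0.18 and 0.52. For both stretches the groups were apart in every contrast, also untested. In KDM6A the rRNA stretch inside mt-Rnr2 (MT:2362-2540) had -0.14, with overlap, beside -0.27 for the whole gene, and in KDM4A 1.14 beside 1.27. The stretch inside mt-Rnr1 (MT:924-953) had -0.42 in KDM6A, with the groups apart, beside -0.24 for the whole gene, 0.69 beside 1.07 in KDM4A, 0.33 beside 0.20 in KDM4B and 0.86 beside 0.58 in KDM6B.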
